A study of Mus musculus with 6 samples.

Results

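Sfmbt2, the gene of a Polycomb-related protein with MBT domains, was followed together with the microRNA families Mir297, Mir466, Mir467 and Mir669, most of which lie inside it. Members were the probe sets whose only gene symbol was Sfmbt2 or began with one of these family names. They number 44 probe sets and 25 genes, Sfmbt2 and 24 microRNA genes, of 22180 genes named on the array. Where a gene had several probe sets, the one with the highest mean over the 6 arrays stood for it. In the RefSeq annotation (GRCm38.p6), 22 of the 24 microRNA members lie within Sfmbt2, so that the label holds for these, and Mir466i and Mir467f lie on other chromosomes. The annotation lists 81 genes of the 4 families, 71 of them within Sfmbt2. The members were taken up because of their differences between these same arrays, chiefly at day 4, and all values below are descriptions without a test.

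RNA came from mouse embryonic stem cells (ESCs) that a lentivirus had given a Chd4, an Mbd3 or a control shRNA, a short hairpin RNA that silences its target by RNA interference. CHD4, an ATPase, and MBD3 both belong to the chromatin complex NuRD, which slides nucleosomes and removes acetyl groups from histones. The 6 groups were Chd4-knockdown, Mbd3-knockdown and control-shRNA cells after 4 days of neural differentiation as aggregates in low-adhesion wells (day 4), and the same 3 lines kept undifferentiated with LIF, a cytokine that holds the stem cell state (day 0). Each group is 1 array, the sources used here do not say how many cultures or clones it stands for, and no difference has a replicate check. The number of arrays limits the precision.

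MicroRNA genes are transcribed as long RNAs with hairpins, which Drosha and Dicer cut into short mature RNAs that guide Argonaute proteins to messenger RNAs. The hairpins inside Sfmbt2 are repeated copies in an intron of the gene, a cluster known from rodents. Sfmbt2 itself is known in mouse as an imprinted gene, expressed from the paternal copy in extraembryonic tissue and needed for the placenta. Probe sets read the RNA of a hairpin in whatever transcript holds it, so that intron RNA, cut hairpins and near-identical copies elsewhere in the cluster cannot be told apart. Values are therefore given as brightness of a probe set.

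Of the mature sequences of these families, the RefSeq table (GRCm38.p6) held those of 2 members, both outside Sfmbt2, and of 6 further family genes that no probe set named alone. They are shown 5′ to 3′ with the seed, bases 2 to 8, in capitals, because they show how repetitive sequences of these families are.
mmu-miR-466i-3p (chr13:17747552-17747573, plus strand): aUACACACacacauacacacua
mmu-miR-467f (chr11:69635419-69635439, minus strand): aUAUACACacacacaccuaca
mmu-miR-466q (chr3:28419988-28420007, plus strand): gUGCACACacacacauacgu
mmu-miR-467g (chr5:34732872-34732892, minus strand): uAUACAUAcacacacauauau
mmu-miR-466k (chr3:85467396-85467418, plus strand): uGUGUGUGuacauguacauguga
mmu-miR-466j (chr10:60960802-60960824, plus strand): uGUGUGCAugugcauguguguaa
mmu-miR-467h (chr9:115381898-115381919, plus strand): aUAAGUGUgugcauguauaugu
mmu-miR-669n (chr3:115979905-115979924, plus strand): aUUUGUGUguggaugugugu
The first 4 consist of A and C for 70% to 86.4% of their bases, and the other 4 of G and U for 68.2% to 90%. A run of 2 alternating bases took up 11 bases of miR-466i-3p and 12 of miR-467f, and 7 to 12 in the other 6. All 8 seeds differ from each other, so no pair could be grouped by a shared seed.

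Sfmbt2 was bright on every array and stood lowest in control cells at day 4. Its probe set had an intensity of 1115 in Chd4-knockdown, 1185 in Mbd3-knockdown and 199 in control cells at day 4. At day 0 it had 521 in Chd4-knockdown, 946 in Mbd3-knockdown and 570.0 in control cells. At day 4 both knockdown arrays thus lay above all 4 other arrays, and the control array lay below all others. Against control, Sfmbt2 was 5.61-fold higher with Chd4 knocked down and 5.96-fold higher with Mbd3 knocked down at day 4. At day 0 the Chd4 knockdown had 91.4% and the Mbd3 knockdown 166% of the control intensity.

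**Figure D1:**
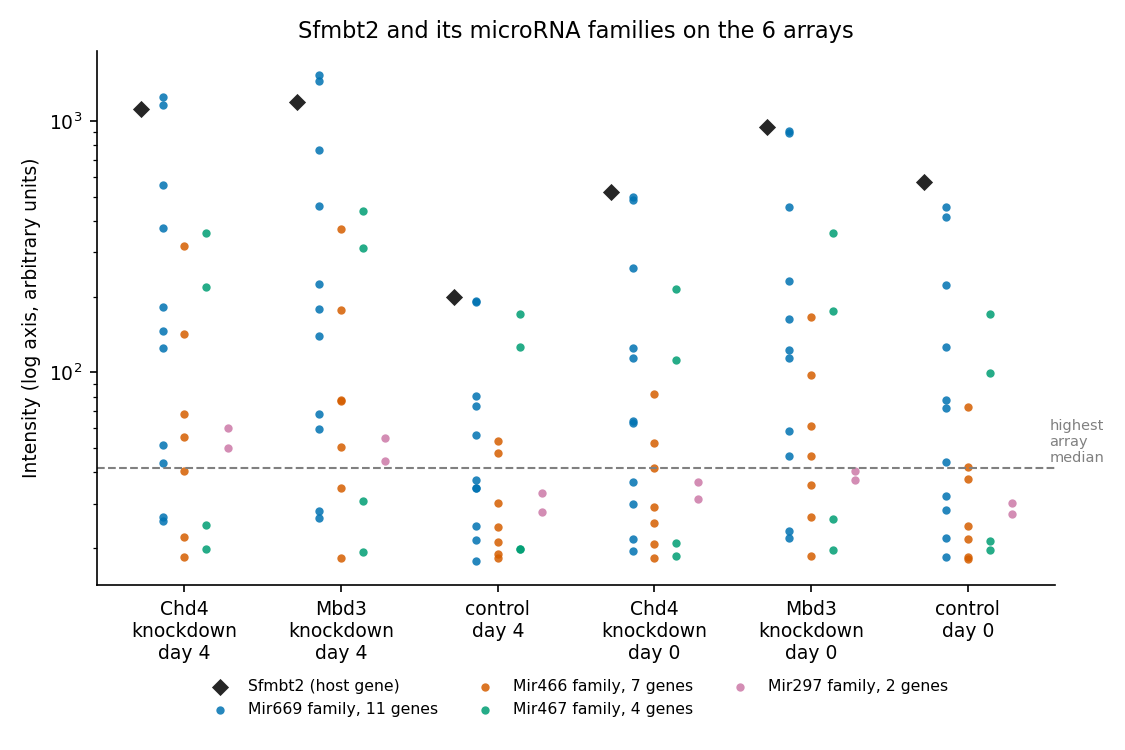
Intensity (log axis) of Sfmbt2 and the 24 microRNA members, 1 point per gene and array, with arrays along the x axis and families in colour. The dashed line is the highest array median, 41.4. Sfmbt2 stands at 1115 and 1185 in the knockdown arrays of day 4 and at 199 in the control array of day 4.

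The 5 brightest microRNA members are given next. Mir669j had 1248 in Chd4-knockdown, 1523 in Mbd3-knockdown and 191 in control cells at day 4, and 486, 914 and 454 in the same order of lines at day 0. Mir669k had 1156 in Chd4-knockdown, 1439 in Mbd3-knockdown and 191 in control cells at day 4, and 497, 897 and 413 at day 0. For both hairpins the control array of day 4 was the dimmest of the 6 and the Mbd3-knockdown array of day 4 the brightest. Mir669i had 558 in Chd4-knockdown, 765 in Mbd3-knockdown and 80.7 in control cells at day 4, and 261, 453 and 222 at day 0. Mir467c had 358 in Chd4-knockdown, 438 in Mbd3-knockdown and 169.9 in control cells at day 4, and 215, 358 and 171 at day 0. Mir467c thus differed from Mir669j, Mir669k and Mir669i in that its control arrays were about alike at the 2 days. The same held for a dimmer Mir669 hairpin, Mir669a-3, with 73.5 at day 4 and 77.3 at day 0 in control cells. Mir669g, the fifth by mean brightness, had 375 in Chd4-knockdown, 459 in Mbd3-knockdown and 56.5 in control cells at day 4, and 125, 232 and 126 at day 0.

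Of the 24 microRNA members, 19 were brightest in Mbd3-knockdown cells at day 4 and 3 in Chd4-knockdown cells at day 4. The dimmest array was control at day 4 for 16 of them and control at day 0 for 7. The shares of all genes that were brightest or dimmest on these arrays are not given here, so these counts have no background. A floor of 41.4, the highest median of an array over all its probe sets, was used to mark dim values. At or above it on all 6 arrays were 9 members, 9 crossed it on some arrays, and 6 stayed under it on all of them. The 6 are Mir466g, Mir467d, Mir669b, Mir669m-2 and the pair outside Sfmbt2, between 17.8 and 34.5. They are included in the counts of brightest and dimmest arrays, although the order of the arrays cannot be read for them.

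At day 4 most of the brighter hairpins were several-fold higher in both knockdowns than in control cells. Both comparisons use the same control array. Mir669i was 6.91-fold higher for Chd4 and 9.48-fold higher for Mbd3 knockdown. Mir669g was 6.64-fold and 8.13-fold higher, Mir669j 6.52-fold and 7.96-fold, and Mir669k 6.05-fold and 7.53-fold, in the Chd4 and the Mbd3 knockdown. Next came Mir466b-2, at 5.98-fold and 6.93-fold, from intensities of 319 in Chd4-knockdown, 369.9 in Mbd3-knockdown and 53.4 in control cells. For 3 more, control lay under the floor and the fold against 41.4 is a bound. Mir669e was at least 3.52-fold and at least 4.30-fold higher, Mir466b-3 at least 3.43-fold and at least 4.28-fold, and Mir669h at least 3.02-fold and at least 3.37-fold, in the Chd4 and the Mbd3 knockdown.

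Counted over the list, 13 of the 25 members were higher by 2-fold or more and 0 lower in the Chd4 knockdown at day 4, where 5.07% of all genes compared were higher. Genes entered a comparison if, on whichever array showed them brighter, they were at or above the median of that array, as 18 members were. In the Mbd3 knockdown 15 members were higher by 2-fold or more and 0 lower at day 4, with 19 compared, where 3.44% of all genes compared were higher. With intensities under the floor set to it, 11 members passed for Chd4 and 12 for Mbd3. The 2-fold lower genes made up 6.65% of those compared for Chd4 and 4.90% for Mbd3. The median log2 difference over all 25 members was 1.07 for Chd4 and 1.37 for Mbd3, beside 0.0014 and -0.00040 over all 22180 genes.

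By family, the day 4 values were as follows, with medians that include members under the floor. Of 11 Mir669 members, 8 were at least 2-fold higher in each knockdown, with median log2 differences of 1.85 for Chd4 and 2.01 for Mbd3. Of 7 Mir466 members, 3 passed for Chd4 and 4 for Mbd3, with medians of 0.94 and 1.26. Of 4 Mir467 members, 1 passed for Chd4 and 2 for Mbd3, with medians of 0.55 and 0.97. Neither of the 2 Mir297 members passed, and their medians were 0.85 and 0.70. Among the members counted, Mir466n and Mir669c in both knockdowns and Mir466o in the Mbd3 knockdown had control under the floor. Their bounds against the floor fell short of 2-fold. Over the members compared alone, the medians for Chd4 and Mbd3 were 1.97 and 2.26 for Mir669 and 0.93 and 1.33 for Mir467. A member could be compared through its knockdown array alone, with control under the floor. For Mir466 they were 1.86 over 4 members for Chd4 and 1.68 over 5 for Mbd3, where Mir466o was added. The Mir466 members compared in both, Mir466b-2, Mir466b-3, Mir466n and Mir466h, each had the larger difference for Mbd3. Whether the families differ was not tested. Mir297b had 49.9 in Chd4-knockdown, 44.3 in Mbd3-knockdown and 27.8 in control cells at day 4, and Mir297a-4 had 60.2, 54.98 and 33.1. These 2 and Mir669b, which stayed under the floor, were the 3 members brightest in the Chd4 knockdown of day 4.

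The pair outside Sfmbt2 gave no usable reading. Mir466i lay between 18.1 and 18.5 and Mir467f between 18.6 and 19.9 over the 6 arrays, near the lowest values of the arrays, 17.4 to 17.6. Both stayed far under the floor on every array, so that no difference can be read from them in either direction. Their mature sequences are the first pair shown above.

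**Figure D2:**
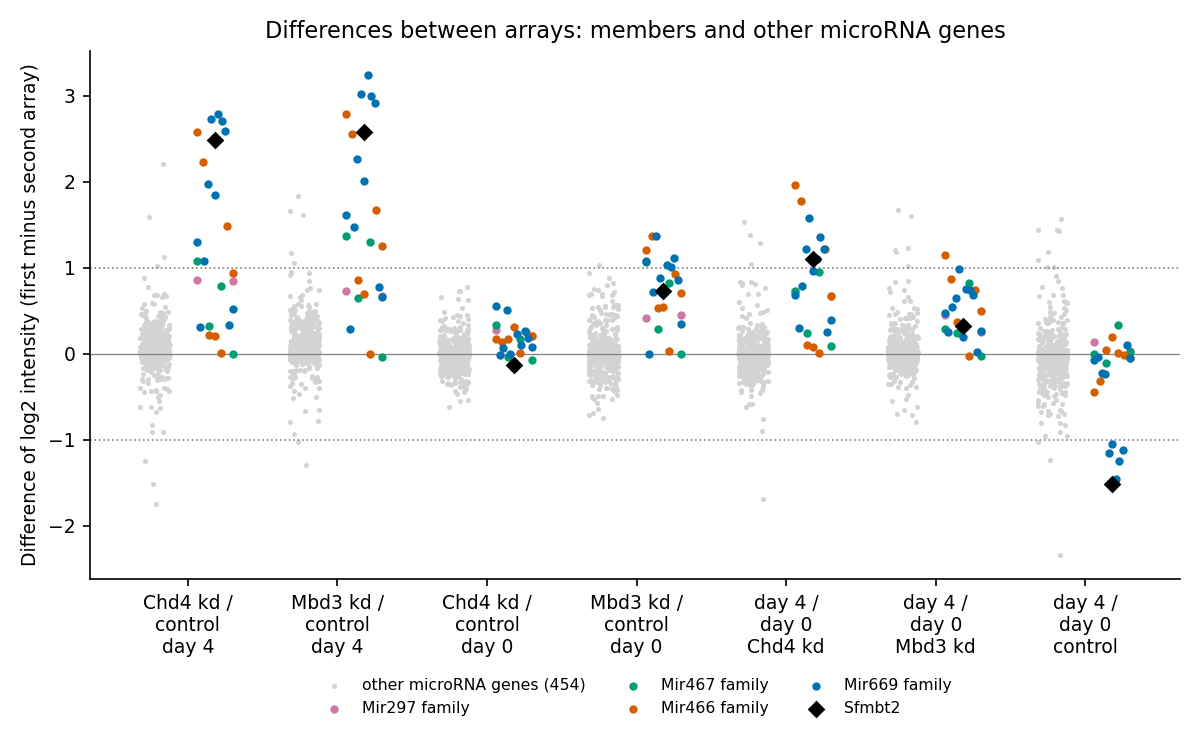
Difference of log2 intensity between 2 arrays (first named minus second; kd, knockdown) for Sfmbt2 (black diamonds), the 24 microRNA members by family (coloured points) and the other 454 microRNA genes (grey points), with dotted lines at 2-fold. At day 4 the bright Mir669 hairpins and Sfmbt2 stand above 2 in both knockdowns, while the median of the grey points is 0.03 and 0.05.

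Of the 454 other microRNA genes, 284 were under the floor on all arrays. In the Chd4 knockdown at day 4, 146 of them were compared, 4 were higher by 2-fold or more and 3 lower, and the median log2 difference was 0.03 over the 454 and 0.10 over those compared. In the Mbd3 knockdown 155 were compared, 5 were higher and 2 lower, and these medians were 0.05 and 0.22. Among the 10 genes measured from microRNA clusters known in stem cells, Mir290a was the only one past 2-fold at day 4. It had 405 in Chd4-knockdown, 313 in Mbd3-knockdown and 87.8 in control cells at day 4, and 499.9, 544 and 445 at day 0. Mir302c, of a cluster of primed pluripotent cells, had 28.3 in Chd4-knockdown, 27.8 in Mbd3-knockdown and 53.3 in control cells at day 4. Of 43 measured microRNA genes between Dlk1 and Dio3, an imprinted region, 1 was at least 2-fold higher in each knockdown at day 4, namely Mir493. Their medians were 0.23 for Chd4 and 0.29 for Mbd3.

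At day 0 the 2 knockdowns differed in what the members showed. In the Mbd3 knockdown 8 of the 25 members were higher by 2-fold or more and 0 lower, where 0.366% of all genes compared were higher and 0.314% lower, and 17 members were compared. Sfmbt2 was not among the 8, at 1.66-fold. Mir669e had 114 in Mbd3-knockdown and 44.0 in control cells, 2.58-fold higher. Mir466b-2 had 167 in Mbd3-knockdown and 72.4 in control cells, 2.30-fold higher. Mir669k, Mir669a-3, Mir467c, Mir669i and Mir669j were 2.01-fold to 2.17-fold higher, and Mir466b-3 at least 2.35-fold. The 8 included the brightest hairpins as well as dimmer ones, with a median log2 difference of 0.79 over the 24 microRNA members.

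In the Chd4 knockdown at day 0, 0 of the 25 members were 2-fold higher or lower, where 0.692% of all genes compared were higher and 0.565% lower, and 12 members were compared. Sfmbt2 differed by -0.13 on the log2 scale. Mir669a-3 had 113 in Chd4-knockdown and 77.3 in control cells, a log2 difference of 0.55. Mir669e had 62.8 in Chd4-knockdown and 44.0 in control cells, a log2 difference of 0.51. Mir467c, Mir466h, Mir669k, Mir669i, Mir466b-2 and Mir467e were 0.17 to 0.33 higher on the log2 scale. Above 0 were 19 of the 24 microRNA members and 10405 of all 22180 genes. Of all 24, 13 lay under the floor on both arrays. The median of the 24 was 0.17, or 0.23 over the 11 compared, beside -0.01 over all genes. Of the other 454 microRNA genes 226 were above 0, with a median of -0.006 over the 138 compared. The 43 between Dlk1 and Dio3 were nearer to the members, with 30 above 0 and a median of 0.24 over the 24 compared. Whether the lines differ in their effect was not tested.

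Differentiation itself was followed from day 0 to day 4 within each line. These pairs share no array with each other. For Sfmbt2 the log2 difference was 1.10 in the Chd4 knockdown, 0.32 in the Mbd3 knockdown and -1.52 in control cells. It was thus 2.86-fold lower at day 4 in the control pair of arrays and stood higher at day 4 in both knockdown pairs. Mir669i had differences of 1.10 in the Chd4 knockdown, 0.76 in the Mbd3 knockdown and -1.46 in control cells. Mir669j had 1.36, 0.74 and -1.25, Mir669g 1.58, 0.99 and -1.15, and Mir669k 1.22, 0.68 and -1.11, in the same order.

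Other hairpins varied more in the control pair. Mir466b-2 had log2 differences of 1.97 in the Chd4 knockdown, 1.15 in the Mbd3 knockdown and -0.44 in control cells. Mir467e was higher at day 4 in all 3 lines, at 217 against 112 in the Chd4 knockdown, 311 against 176 in the Mbd3 knockdown and 126 against 99.7 in control cells. Mir669h, at 34.8 against 71.8 in control cells, was at least 1.73-fold lower at day 4 there. In the Chd4 knockdown Mir466b-3 was at least 3.43-fold higher at day 4, and in the Mbd3 knockdown 1.82-fold.

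In the Chd4 knockdown 9 of the 25 members were at least 2-fold higher at day 4 than at day 0 and 0 lower, where 1.70% of all genes compared were higher and 1.16% lower. With intensities under the floor set to it, 8 were higher. In the Mbd3 knockdown 1 member, Mir466b-2, was higher and 0 lower, where 1.60% were higher and 1.11% lower. That call rests on the brightest of its 7 probe sets, at 1.15, and their mean is 0.80. In control cells 0 members were higher and 6 lower, where 8.13% were higher and 4.70% lower. The 6 are Sfmbt2, Mir669g, Mir669h, Mir669i, Mir669j and Mir669k. Mir669h is counted by its measured difference of -1.05, and its bound of 1.73-fold does not reach 2-fold, so that 5 pass with the floor. The mean over probe sets leaves 4, with Mir669g at -0.97 and Mir669i at -0.90. The numbers of members compared were 18, 19 and 12 in the Chd4-knockdown, Mbd3-knockdown and control lines. The median log2 difference of the 24 microRNA members was 0.73, 0.46 and -0.05 in these lines, and of the other 454 microRNA genes -0.0084, 0.02 and -0.04.

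The order of the hairpins along Sfmbt2 gave no single gradient. The first in RefSeq order, Mir669e, stood at a log2 difference of 1.97 in the Chd4 knockdown at day 4 and Mir669b, next to it, at 0.31, with both of its intensities under the floor. A stretch in the middle, from Mir669k through Mir669g, Mir669j and Mir466b-2 to Mir466b-3, held 2.24 to 2.73 for Chd4 and 2.56 to 3.02 for Mbd3. Members from Mir467e to Mir297a-4 lay between 0.21 and 1.48 for Chd4 and between 0.65 and 1.68 for Mbd3. Among them Mir467d, Mir669m-2 and Mir466g stayed under the floor on all arrays. The last 2, Mir669i and Mir669h, lay at 2.79 and 1.85 for Chd4. The other, dimmer probe set of Mir669i read 1.39 for Chd4 and 1.45 for Mbd3. Among members with 1 probe set, the numbers of the sets rise along the cluster. By number, the dimmer set of Mir669i falls between Mir297a-4 and Mir669h, at this place. The brighter set, which gave 2.79 and enters the coefficients with order, falls before Mir669e, at the other end. Positions of the sets themselves were not checked. Spearman's rho between order and the difference was -0.20 for Chd4 and -0.13 for Mbd3 over the 22 hairpins inside Sfmbt2. Between mean log2 brightness and the difference, rho was 0.75 for Chd4 and 0.80 for Mbd3. That mean includes the arrays compared, and the parts of place and brightness were not tested. These points share arrays, repeats and probes, so the coefficients are descriptions.

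**Figure D3:**
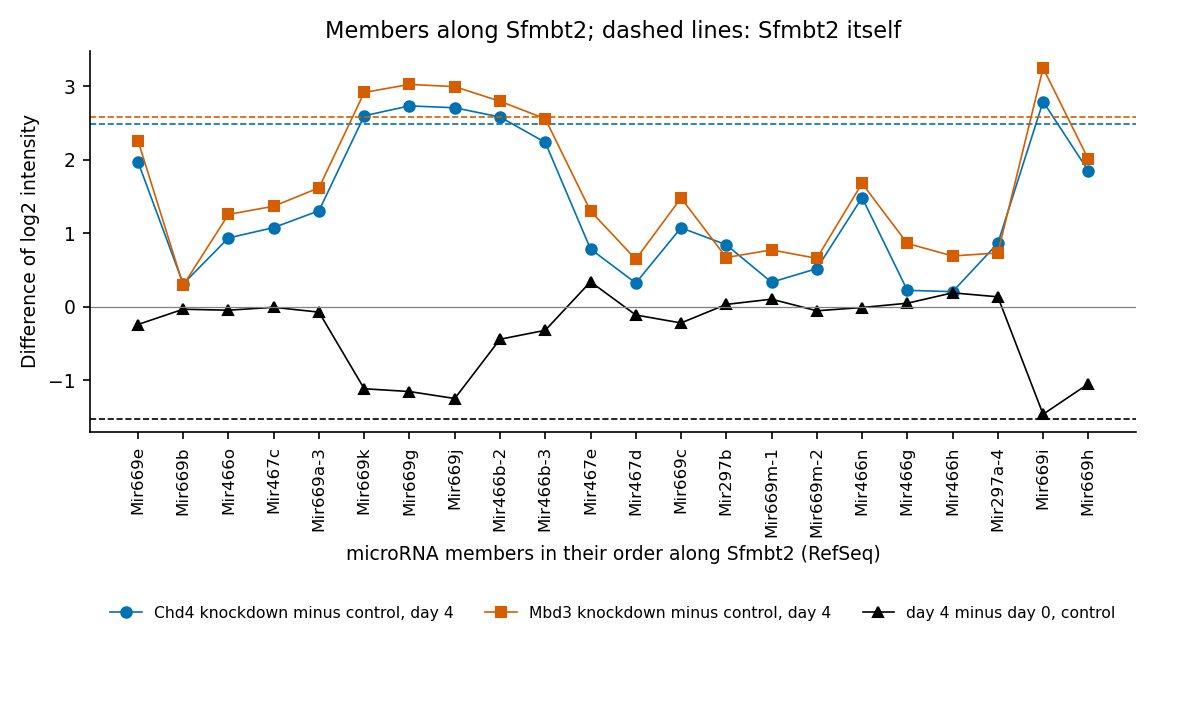
Difference of log2 intensity (y axis) of the 22 microRNA members inside Sfmbt2 in their RefSeq order (x axis), with dashed lines at the value of Sfmbt2. Points from Mir669k to Mir466b-3 and at Mir669i lie near or above the dashed lines at day 4 (2.49 for Chd4 and 2.57 for Mbd3). Mir669k, Mir669g, Mir669j, Mir669i and Mir669h lie under -1 in control cells. Genes with several probe sets, such as Mir669i, are shown by the brightest one. For Mir669i the number of that set falls before Mir669e, at the other end of the cluster.

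Several members had more than 1 probe set, which showed how far copies share signal. Mir669k had 9, of which 5 had another one within 1% on all 6 arrays, and the log2 differences of the 9 ran from 2.57 to 2.80 for Chd4 and from 2.86 to 3.17 for Mbd3 at day 4. Mir466b-2 had 7, 6 of them alike within 1% of another, with 2.35 to 2.58 for Chd4 and 2.54 to 2.79 for Mbd3. Mir669g had 5, and the dimmest of them stood apart, with 1.52 for Chd4 and 1.77 for Mbd3 against up to 2.73 and 3.02. The 2 probe sets of Mir669i disagreed in size, with 1.39 and 2.79 for Chd4 and 1.45 and 3.24 for Mbd3. All probe sets of these 4 genes were higher in both knockdowns at day 4. The sets that agree within 1% are not independent readings.

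A further 27 probe sets carried several symbols, all of them of these families, and were no members. In the Chd4 knockdown at day 4, 26 of the 27 were at least 2-fold higher than in control, with a median log2 difference of 2.45. In the Mbd3 knockdown 26 were, with 2.66. Of all genes compared, 5.07% and 3.44% were higher. The 27 were not filtered on brightness, and many share symbols and repeats, so they are not independent readings. Mir467a sets with medians of 24.4 to 24.5 in control cells had 76.4 to 78.2 in Chd4-knockdown cells. Against the floor these fall short of 2-fold for Chd4. The 12 sets shared by Mir669a-1, Mir669a-2 and Mir669a-3 had medians of 448 in Chd4-knockdown, 519 in Mbd3-knockdown and 81.7 in control cells at day 4, and 138, 251 and 112 at day 0. The set that Mir466d shares with Mir466n was the exception, at 81.3 in Chd4-knockdown, 108 in Mbd3-knockdown and 58.9 in control cells at day 4. From day 0 to day 4, 26 of the 27 were at least 2-fold higher in the Chd4 knockdown, 14 in the Mbd3 knockdown and 0 in control cells, where 0 were lower. Of all genes compared, 1.70%, 1.60% and 8.13% were higher in these lines, and 4.70% were lower in control cells. The dim Mir467a sets lay under the floor at day 0 in the Chd4 knockdown, and fall short of 2-fold against it there too.

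Likeness to Sfmbt2 was measured as Pearson's r of log2 intensities over the 6 arrays, as a description. The 22 hairpins inside Sfmbt2 had r from 0.65 to 0.99 with a median of 0.87. Of the 22, 6 reached 0.9 (27.3%), against 200 of 12943 genes of at least median brightness (1.55%). The 22 were not filtered on brightness, so the 2 shares have unlike bases. All 6 are Mir669 hairpins and are not independent of each other. The 5 genes most like Sfmbt2 among the 12943 had r of 0.992 to 0.995. They were Kmt2d, a histone H3 methyltransferase, the folate receptor gene Folr2, the NLR family gene Nlrp9b, the member Mir669h, and Alpl, the alkaline phosphatase of stem cells. Their range was far smaller than that of Sfmbt2 in some cases. Kmt2d had 457 in Chd4-knockdown, 468 in Mbd3-knockdown and 269.8 in control cells at day 4, and 364, 416 and 365 at day 0. Nlrp9b had 162 in Chd4-knockdown, 154 in Mbd3-knockdown and 39.3 in control cells at day 4, and 81.5, 117 and 85.1 at day 0.

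Genes beside Sfmbt2 did not share its pattern. Of the 10 nearest protein-coding genes on each side in RefSeq, 18 were measured, and 0 were at least 2-fold higher in either knockdown at day 4. Celf2, the gene of an RNA-binding splicing factor, and Pfkfb3, a regulator of glycolysis, were the 2 that were lower. Pfkfb3 had 55.2 in Chd4-knockdown, 48.2 in Mbd3-knockdown and 148 in control cells at day 4. Celf2 had 36.2 in Chd4-knockdown, 52.5 in Mbd3-knockdown and 134 in control cells at day 4. The direct neighbours, Itih5 on one side and Prkcq on the other, were dim, with at most 57.4 and 47.2 on any array.

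**Figure D4:**
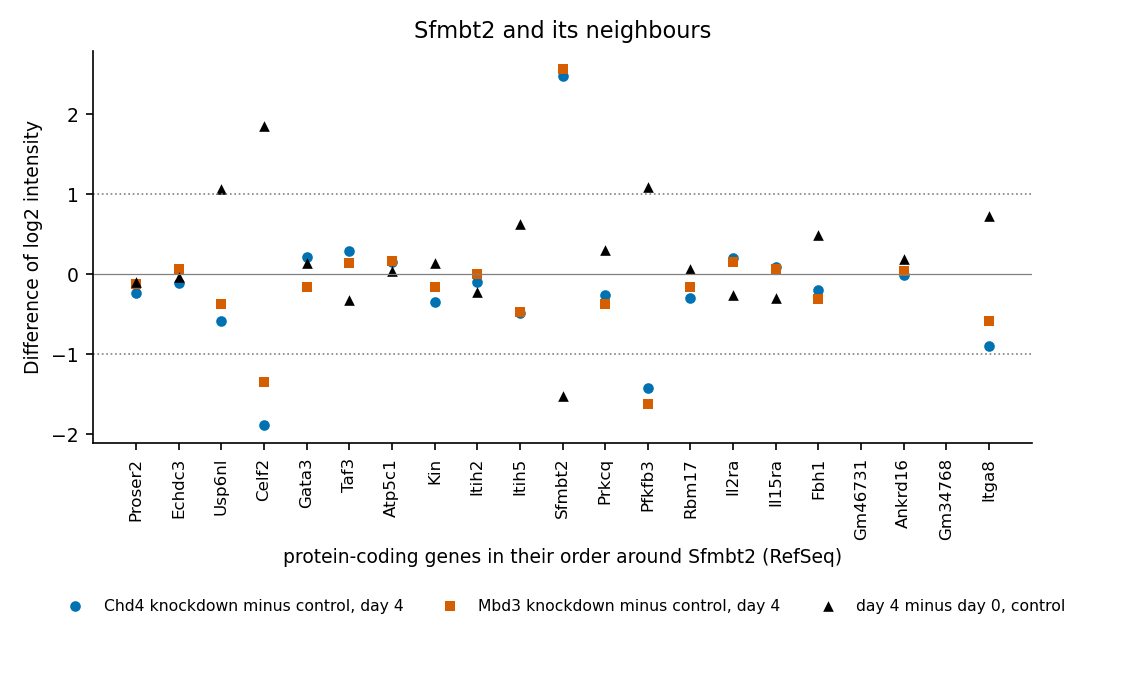
Difference of log2 intensity (y axis) of Sfmbt2 and of the 18 measured protein-coding neighbours (x axis, in RefSeq order), with dotted lines at 2-fold. Sfmbt2 stands at 2.49 and 2.57 in the knockdowns of day 4 and at -1.52 in the control pair, and none of the 18 neighbours exceeds 1 in the knockdowns of day 4.

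Start sites of Sfmbt2 are shown because both the host gene and the brighter hairpins inside it were several-fold higher in the knockdowns at day 4. RefSeq (GRCm38.p6) gives 2 windows, each from 250 bases before to 50 after a start, on the plus strand. Capitals mark matches, on either strand, to the GC box (GGGCGG), the CCAAT box (CCAAT) and the core of the YY1 site (GCCATNTT), motifs picked after the sequences had been read.
Sfmbt2 start 1 (chr2:10370201-10370500): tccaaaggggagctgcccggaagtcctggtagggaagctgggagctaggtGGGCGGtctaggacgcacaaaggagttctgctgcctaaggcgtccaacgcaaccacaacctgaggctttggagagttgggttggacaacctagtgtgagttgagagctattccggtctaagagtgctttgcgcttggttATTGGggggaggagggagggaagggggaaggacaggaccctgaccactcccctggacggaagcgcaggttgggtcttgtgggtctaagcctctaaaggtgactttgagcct
Sfmbt2 start 2 (chr2:10372186-10372485): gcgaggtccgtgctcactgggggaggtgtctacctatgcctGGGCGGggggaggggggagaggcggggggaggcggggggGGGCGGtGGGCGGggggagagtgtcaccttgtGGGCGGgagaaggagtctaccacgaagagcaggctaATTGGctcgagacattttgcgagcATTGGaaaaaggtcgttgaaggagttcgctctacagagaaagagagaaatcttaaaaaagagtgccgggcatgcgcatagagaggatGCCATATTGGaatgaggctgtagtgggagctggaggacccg
The first window held 1 GC box and 1 CCAAT box, and the second 4 GC boxes, 3 CCAAT boxes and 1 YY1 core, which overlaps the last CCAAT box. Of 32851 windows of this length in the table, 35.7% held a GC box, 37.4% a CCAAT box and 6.05% a YY1 core. CG dinucleotides numbered 9 in the first and 16 in the second window, against a median of 7 over all windows. The E-box CACGTG, in 7.15% of all windows, was in neither. These are matches of letters and nothing on binding was measured.

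Relatives of Sfmbt2 showed no common direction. Of 9 other MBT domain genes, 1 was higher by 2-fold or more and 1 lower in the Chd4 knockdown at day 4, and 0 and 1 in the Mbd3 knockdown, with median log2 differences of -0.09 and -0.04. L3mbtl2, part of a Polycomb complex, had 591 in Chd4-knockdown, 422 in Mbd3-knockdown and 223 in control cells at day 4, with 624 in control cells at day 0. L3mbtl3 had 75.8 in Chd4-knockdown, 68.5 in Mbd3-knockdown and 153 in control cells at day 4. Of these 9 at day 0, the one past 2-fold was Scmh1, a Polycomb group gene, with 185 in Chd4-knockdown and 371 in control cells. None of 8 partners and Polycomb genes passed 2-fold in any comparison. In Drosophila the Sfmbt protein pairs with Pho, the counterpart of YY1, and Yy1 had 408 in Chd4-knockdown, 367 in Mbd3-knockdown and 411 in control cells at day 4, and 395, 456 and 444 at day 0.

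Genes that make or load microRNAs were looked at as the machinery the hairpins need. Of 18 measured, 0 were higher by 2-fold or more and 2 lower in each knockdown at day 4. Lin28b, which blocks let-7 maturation, had 72.4 in Chd4-knockdown, 103 in Mbd3-knockdown and 219 in control cells. Prkra, a partner of Dicer, had 61.3 in Chd4-knockdown, 64.7 in Mbd3-knockdown and 137 in control cells. At day 0 none of the 18 passed 2-fold in either knockdown, and Tnrc6a, a partner of Argonaute, was nearest, with 448 in Mbd3-knockdown and 268 in control cells.

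The state of the cells differed between the arrays in the same comparisons. The summed intensity of 8 stem cell markers was 4031 in Chd4-knockdown, 4011 in Mbd3-knockdown and 1491 in control cells at day 4, and 7229, 6869 and 6686 at day 0. That of 7 neural progenitor markers was 636 in Chd4-knockdown, 971 in Mbd3-knockdown and 5349 in control cells at day 4. Trophoblast markers, of a tissue in which Sfmbt2 is known to be active, summed to 1134 in Chd4-knockdown, 1105 in Mbd3-knockdown and 621 in control cells at day 4, and to 1523, 1264 and 1368 at day 0. Of these 12, 2 were at least 2-fold higher for Chd4 and 3 for Mbd3 knockdown at day 4, among them Plet1. Above 0 in log2 difference were 11 of the 12 for Chd4 and 10 for Mbd3. Cdx2 and Elf5 stayed under the floor at day 4 in all 3 lines, at 24.3 to 39.1. Eomes lay over it, with 63.8 in Mbd3-knockdown and 50.3 in control cells. The part of cell state in the members' values was not tested, and fewer cells of a type and less RNA per cell cannot be told apart in bulk RNA.

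The targets checked the labels. In its own knockdown, the Chd4 probe set had 29.8% of the control intensity at day 0 and 71.3% at day 4, and that of Mbd3 43.0% and 75.5%. The largest differences of the members from control were at day 4, where both targets were nearer to control. Array medians ran from 39.6 to 41.4.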

How the data were processed

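The authors deposited linear intensities of 6 Mouse Gene 2.0 ST arrays, which read total RNA. The authors analysed them in GeneSpring GX 12.6.1, per the series' design text, and RMA, which corrects background, equalizes arrays by quantiles and summarizes probes, is named per the submitters' processing notes. No genome build is named in the sources used here.

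Log2 was taken without further scaling in Python 3.11.15 (numpy 2.4.6, pandas 2.3.3). Of 34351 probe sets, 23521 had 1 symbol, giving 22180 genes. Genes were compared where the brighter array reached its median and counted past 2-fold. The calculation was tested on simulated data. Sfmbt2, up to 8 microRNA members per comparison, the 5 brightest, 3 genes per list and the 5 genes most like Sfmbt2 were eligible to be named with values, and dimmer members were added for completeness. Members and lists were chosen with earlier results of these data known. Alternatives were 16 subtracted from each intensity (a constant inferred from the lowest values, which no source states), no filter, median centring, a floor, and the mean over probe sets. Sequences are from RefSeq, matched by symbol.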

Additional observations from a re-analysis of the deposited data

Results flagged for a closer look

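For 5 members the day difference ran past 2-fold in opposite directions in the Chd4-knockdown and the control line. The share of all genes that did so is not given here, so this count has no background. The members were taken up because of differences between these same arrays. Each line is 1 pair of arrays, and the difference between the lines was not tested. Sfmbt2 stood at 1.10 in the Chd4 knockdown and -1.52 in control cells on the log2 scale. Mir669g stood at 1.58 and -1.15, Mir669i at 1.10 and -1.46, Mir669j at 1.36 and -1.25, and Mir669k at 1.22 and -1.11, in the same order of lines. With the mean over all probe sets of a gene, Mir669g at -0.97 and Mir669i at -0.90 are no longer past 2-fold in control cells, and Mir669k stays at -1.11. In the Mbd3 knockdown the 5 lay between 0.32 and 0.99. The 4 hairpins lie inside Sfmbt2 and share repeats, so that they are not independent of each other.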

How the results depend on the processing

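No paired analysis was possible because each group holds 1 array, so that groups share fewer than 2 replicate numbers. An additive fit of line and day over all 6 arrays was not run, since it gives no value for a line at a single day. Across the 7 comparisons, the count of members past 2-fold and the log2 difference of Sfmbt2 were set against the reported values. Both stayed within 1.5 times of them, or within the typical difference of a gene, under no filter on dim probe sets, median centring and the floor of 41.4. The counts did so too for Sfmbt2 with only the hairpins inside it. The exceptions were in the day comparison of the knockdown lines. With 16 subtracted from each intensity, 14 members in place of 9 were past 2-fold in the Chd4 knockdown and 3 in place of 1 in the Mbd3 knockdown. With the mean over all probe sets of a gene the count in the Mbd3 knockdown was 0, as Mir466b-2 lost its call. The median over the 24 microRNA members moved with the treatment of dim values. In the Mbd3 knockdown at day 4 it was 1.33 as reported, 2.63 with 16 subtracted and 0.81 with the floor. In the Chd4 knockdown at day 4 it was 1.00, 1.80 and 0.63, and in the Mbd3 knockdown at day 0 it was 0.79, 1.11 and 0.52, in the same order. For day 4 against day 0, subtracting 16 gave 1.15 in place of 0.73 in the Chd4 knockdown and 0.72 in place of 0.46 in the Mbd3 knockdown. No call changed direction. The uncalled median in control cells from day 0 to day 4 was -0.05 as deposited and 0.013 with median centring. An added constant would shrink the differences of dim hairpins. Dimness limits the 6 members that stayed under the floor.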
